A study of Mus musculus with 24 samples.

Results

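Alveolar macrophages that received recombinant IL-33, IL-13 and IL-17A together (labelled rIL-33/rIL-13/rIL-17A, here the triple combination) were compared with macrophages labelled Untreated. Both groups were chosen by their treatment label. Each has 3 libraries, so 6 of the 24 libraries of the series carry the comparison, and the other 18 belong to the 6 groups given 1 or 2 of these cytokines. All groups are primary cells from wild-type BALB/cJ mice, with RNA taken 20 h after stimulation, and no gene was deleted in any of them. The labels give no cytokine dose, no culture condition, and do not say whether libraries of a group stem from different mice or wells. The p-values therefore set a group difference against the spread within groups, estimated over all 24 libraries, which may be technical variation. A gene entered the test if its TPM was at least 1 in at least 3 of the 24 libraries, which 13215 of 17017 genes did. TPM is a length-scaled share of reads that sums to 1000000 in each library.

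Alveolar macrophages are the resident phagocytes of the air spaces, where they clear particles and surfactant. IL-13 binds a receptor made of Il13ra1 and Il4ra and acts through JAK kinases and Stat6, which in macrophages drives the programme called alternative activation. IL-33 binds Il1rl1 paired with Il1rap and acts through Myd88 and the IRAK kinases, and IL-17A binds Il17ra paired with Il17rc. All 3 are cytokines of allergic and inflammatory lung disease.

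The libraries held 9.11 to 12.86 M reads (M being 1000000) as recovered from the TPM steps, with 10.38, 10.30 and 11.63 M in the triple combination and 9.26, 10.79 and 10.44 M in untreated cells. Libraries differed in transcript length bias, measured as the slope of a library's deviations from each gene's mean over 24 libraries on the log2 transcript length. The slopes were 0.0176, -0.184 and 0.0195 in the triple combination, against -0.0685, 0.0423 and 0.0307 in untreated cells. Replicate 2 of the triple combination had the lowest slope of all 24 libraries, and replicate 1 was the lowest of the untreated group, so long transcripts read low in both. Against genomic span in place of transcript length, the slope of replicate 2 of the triple combination was -0.0487. Replicate 2 of the triple combination also had the highest mitochondrial share of the 24, at 1.08% of reads. Pearson's r of log2(TPM + 1) across genes, which are not independent replicates, was 0.974 and 0.975 between replicate 2 and the other triple libraries and 0.983 between those. In untreated cells the 3 pairs gave 0.980, 0.980 and 0.983.

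**Figure D1:**
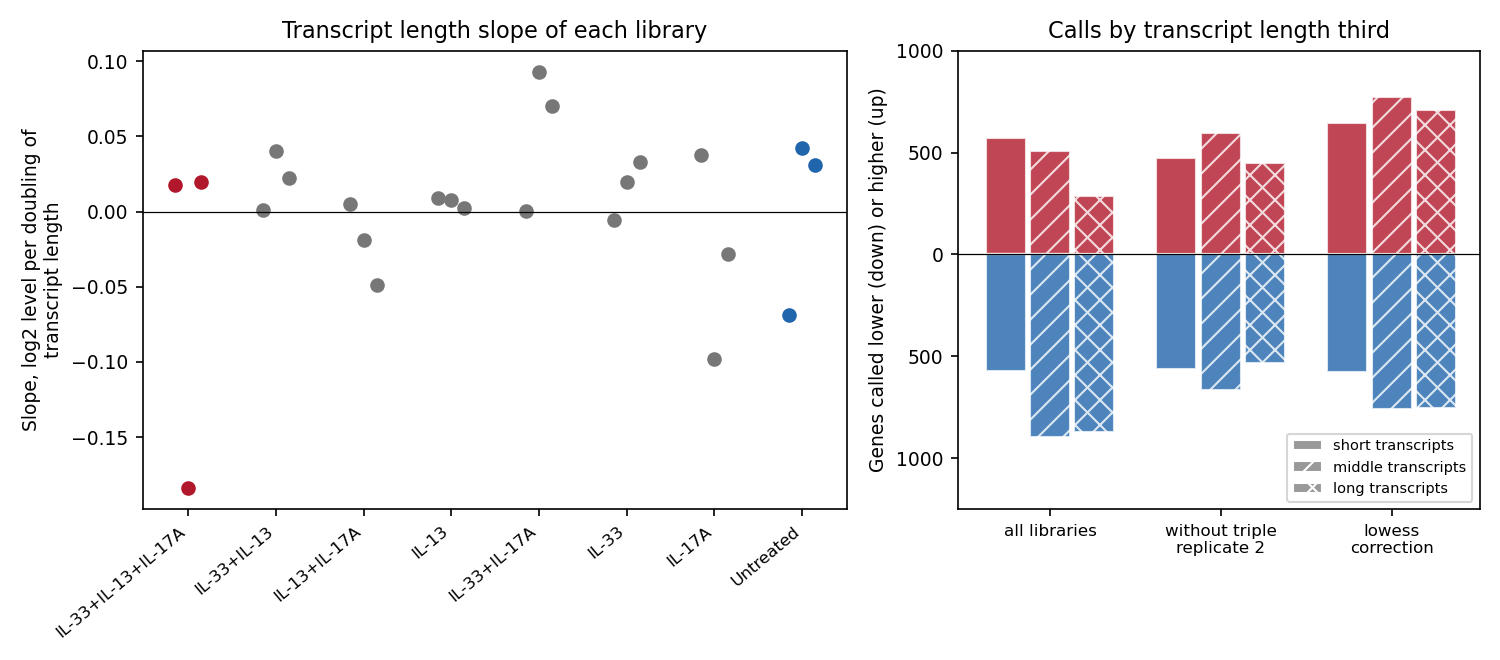
Left, the transcript length slope of each of the 24 libraries by group, in log2 level per doubling of transcript length. A slope of 0 means the average length dependence of the 24 libraries, not the absence of bias. Right, genes called higher (up) or lower (down) in the triple combination against untreated among short, middle and long transcripts, with all libraries, without replicate 2 of the triple combination, and after a lowess correction on length. With all libraries 286 long transcripts were called higher and 871 lower, and without replicate 2 of the triple combination 449 and 532.

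A gene was called at a limma adjusted p under 0.05, with no minimum fold. The triple combination changed 3710 of the 13215 genes, a share of 28.1%. Of these, 1367 were higher (10.3% of tested genes) and 2343 lower (17.7%), and the median log2 fold change over all tested genes was -0.07. The split between directions depended on the setting. Without replicate 2 of the triple combination 1519 genes were higher and 1761 lower, with median-ratio scaling 1941 and 1885, with the slope as a covariate 1866 and 2486, and with the lowess correction 2124 and 2088. The share called higher among calls was 36.8% as fitted, 50.7% with median-ratio scaling, 50.4% with the lowess correction, 44.1% with limma-voom on recovered reads and 42.9% with the slope covariate. It was 46.3% without replicate 2 of the triple combination, 29.8% without its replicate 3, 31.9% without untreated replicate 1 and 39.9% without both low-slope libraries (1331 higher and 2002 lower), a setting chosen after seeing the data. The part of the length bias in the split was not tested. Of the 3710 genes, 2817 were called the same way without that library and 3178 with median-ratio scaling, and none was called the other way. Short, middle and long transcripts were cut at 1236 and 2067 bases, and their median log2 fold changes were -0.01, -0.07 and -0.12. With only the 6 libraries compared in the fit, 1508 genes were called, 687 higher and 821 lower.

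Most calls were under 2-fold. On the log2(TPM + 1) scale, which understates low genes, 149 genes were at least 2-fold higher and 106 at least 2-fold lower. With a pseudocount of 0.1 these counts were 208 and 198, and with limma-voom 226 and 192. At 4-fold or more there were 38 higher and 6 lower. Of the 255 genes at 2-fold or more, 235 kept their call without replicate 2 of the triple combination and 254 under median-ratio scaling. All 3 triple libraries lay above all 3 untreated ones for 1594 genes (12.1% of tested genes) and below them for 2649 (20%). Of the tested genes 117 reached 1 TPM only in libraries given IL-13, and 40 of these were called higher. Genes that also reached it in other libraries, but in fewer than 3, are not in this count. They too passed the filter with the help of IL-13 libraries, and the list counts given without such members still hold them.

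Cish, which codes for an inhibitor of STAT5 signalling, had the largest increase on this scale. It had 139.9, 126 and 135 TPM in the triple libraries, against 0.777, 1.73 and 0.298 TPM in untreated ones (log2 fold change 6.19 ± 0.20 (SE), limma adjusted p = 3.45e-14). Rnase2a, of the eosinophil-associated ribonuclease family, had 50.6, 65.4 and 59.04 TPM in the triple combination, against 0, 1.14 and 1.18 TPM untreated. Both genes were close to absent in untreated cells and clearly present in all 3 treated libraries. Ocstamp, needed for the fusion of macrophages and osteoclasts, had 21.3, 25.1 and 24.2 TPM in the triple combination, against 0, 0 and 0.152 TPM in untreated cells, of which 2 libraries are listed at 0. With limma-voom on recovered reads Ocstamp came before Cish, with fitted log2 fold changes of 7.79 and 7.37 that depend on the prior count. Ch25h, the enzyme that makes 25-hydroxycholesterol, had 654, 713 and 686 TPM, against 39.4, 52.6 and 37.8 TPM untreated (log2 fold change 3.97 ± 0.11 (SE), limma adjusted p = 5.52e-15). Chil3, the secreted chitinase-like lectin Ym1, had 4192, 3964 and 4081 TPM in the triple libraries, against 378, 383 and 384 TPM in untreated cells (log2 fold change 3.41 ± 0.037 (SE), limma adjusted p = 1.71e-21), the smallest adjusted p of the comparison. Cish overlaps the antisense genes Gm17040 and Gm17041, and Chil3 and Rnase2a have near copies with which reads may be shared, so their levels are uncertain to that extent.

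The other large increases were in Ccl22, a ligand of the chemokine receptor Ccr4, with 15.8, 15.2 and 23.8 TPM, against 0.688, 1.43 and 0.33 TPM untreated, and in the collagenase Mmp13, with 227, 212 and 245 TPM, against 19.2, 22.2 and 28.4 TPM. Irf4, a transcription factor of alternative activation, had 34.9, 24.7 and 37.9 TPM in the triple combination, with replicate 2 the lowest, and 2.49, 2.79 and 2.27 TPM untreated (log2 fold change 3.23 ± 0.12 (SE), limma adjusted p = 3.67e-13). The claudin gene Cldn23 had 24.9, 16.3 and 15.05 TPM, against 1.14, 1.58 and 1.09 TPM, and Plekhf1, which codes for an endosomal protein, had 16.2, 18.96 and 20.9 TPM, against 1.52, 1.06 and 1.37 TPM. In all 10 genes the groups were apart, by the rule that chose them.

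Promoters of these genes are shown because STAT factors bind short palindromes, and the 10 largest increases include known STAT targets. RefSeq holds promoters of 8 of the 10 on GRCm38.p6, as windows of 250 bases before to 50 after the start. They were searched for TTC and GAA with 4 or 3 bases of any kind between them, patterns that read the same on both strands. Of the 8, 3 held either pattern, where 14.6% of all 32851 windows did (6.95% with 4 bases between and 8.3% with 3). A match describes these letters and is not evidence of binding. Capitals mark the matches, and Rnase2a, the second largest increase, had none in its window.
Cish, chr9:107296409-107296708, + strand, 2 matches with 3 bases between, the first at the RefSeq start: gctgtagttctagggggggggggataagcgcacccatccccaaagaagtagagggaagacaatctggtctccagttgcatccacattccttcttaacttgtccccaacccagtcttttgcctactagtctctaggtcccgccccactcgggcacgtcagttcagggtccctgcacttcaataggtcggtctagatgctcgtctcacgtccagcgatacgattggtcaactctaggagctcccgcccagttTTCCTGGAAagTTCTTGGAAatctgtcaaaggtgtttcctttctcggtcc
Chil3, chr3:106167515-106167814, - strand, 1 match with 3 bases between, 172 bases before the start: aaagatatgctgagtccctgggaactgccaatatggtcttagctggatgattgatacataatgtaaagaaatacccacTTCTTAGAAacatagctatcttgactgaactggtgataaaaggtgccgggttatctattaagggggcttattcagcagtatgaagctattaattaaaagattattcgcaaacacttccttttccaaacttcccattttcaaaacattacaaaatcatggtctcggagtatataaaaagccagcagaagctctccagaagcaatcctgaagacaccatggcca
Plekhf1, chr7:38227945-38228244, - strand, 1 match with 4 bases between, 119 bases before the start: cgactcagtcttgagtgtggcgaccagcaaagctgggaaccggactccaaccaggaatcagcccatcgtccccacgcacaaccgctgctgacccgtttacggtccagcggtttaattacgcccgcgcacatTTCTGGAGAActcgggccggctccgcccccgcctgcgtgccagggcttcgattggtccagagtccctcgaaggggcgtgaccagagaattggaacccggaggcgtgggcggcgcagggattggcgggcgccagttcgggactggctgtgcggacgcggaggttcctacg
Rnase2a, chr14:51256063-51256362, - strand, no match: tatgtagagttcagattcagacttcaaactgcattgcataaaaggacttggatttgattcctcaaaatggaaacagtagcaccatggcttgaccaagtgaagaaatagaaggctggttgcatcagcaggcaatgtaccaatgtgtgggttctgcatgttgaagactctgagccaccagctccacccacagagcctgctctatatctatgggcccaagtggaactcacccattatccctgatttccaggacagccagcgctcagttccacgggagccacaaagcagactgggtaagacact

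Among the decreases, Hp, which codes for the haemoglobin-binding protein haptoglobin, had 15.95, 14.6 and 11.98 TPM in the triple combination, against 92.5, 102 and 86.5 TPM untreated (log2 fold change -2.64 ± 0.16 (SE), limma adjusted p = 3.1e-10). Lyl1, a helix-loop-helix transcription factor of blood cells, had 10.4, 9.36 and 11.3 TPM, against 43.03, 49.3 and 41.6 TPM (log2 fold change -2.01 ± 0.12 (SE), limma adjusted p = 2.18e-10). Cxcl16, a membrane-bound chemokine and scavenger of oxidised lipoprotein, had 65.9, 65.4 and 58.4 TPM, against 218, 239 and 236 TPM (log2 fold change -1.85 ± 0.051 (SE), limma adjusted p = 4.35e-15). The rule that chose the decreases named here required the groups to be apart. Cdo1, the first enzyme of taurine synthesis from cysteine, had 0.514, 0.581 and 0.472 TPM, against 5.46, 4.797 and 5.902 TPM, and the semaphorin gene Sema4d had 6.297, 4.44 and 6.57 TPM, against 20.1, 24.2 and 23.4 TPM. Ndrg1, a gene induced by hypoxia in many cells, had 4.66, 4.49 and 5.095 TPM, against 17.98, 19.1 and 20.4 TPM. Pilrb2, of the paired immunoglobulin-like receptors, had 2.12, 3.25 and 1.65 TPM, against 10.5, 10.7 and 9.93 TPM, and Frat2, which codes for a binder of the kinase GSK3, had 2.71, 2.86 and 0.83 TPM, against 8.75, 6.299 and 9.797 TPM. Lrrc14b, with 0.355, 0.31 and 0.668 TPM against 9.83, 4.63 and 12.2 TPM, overlaps Ccdc127 on the other strand, and Zmynd15, with 3.500, 1.67 and 3.63 TPM against 10.2, 12.1 and 11.8 TPM, overlaps Cxcl16. The handling of strand is not given in the sources used here, so reads of such partners cannot be told apart.

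**Figure D2:**
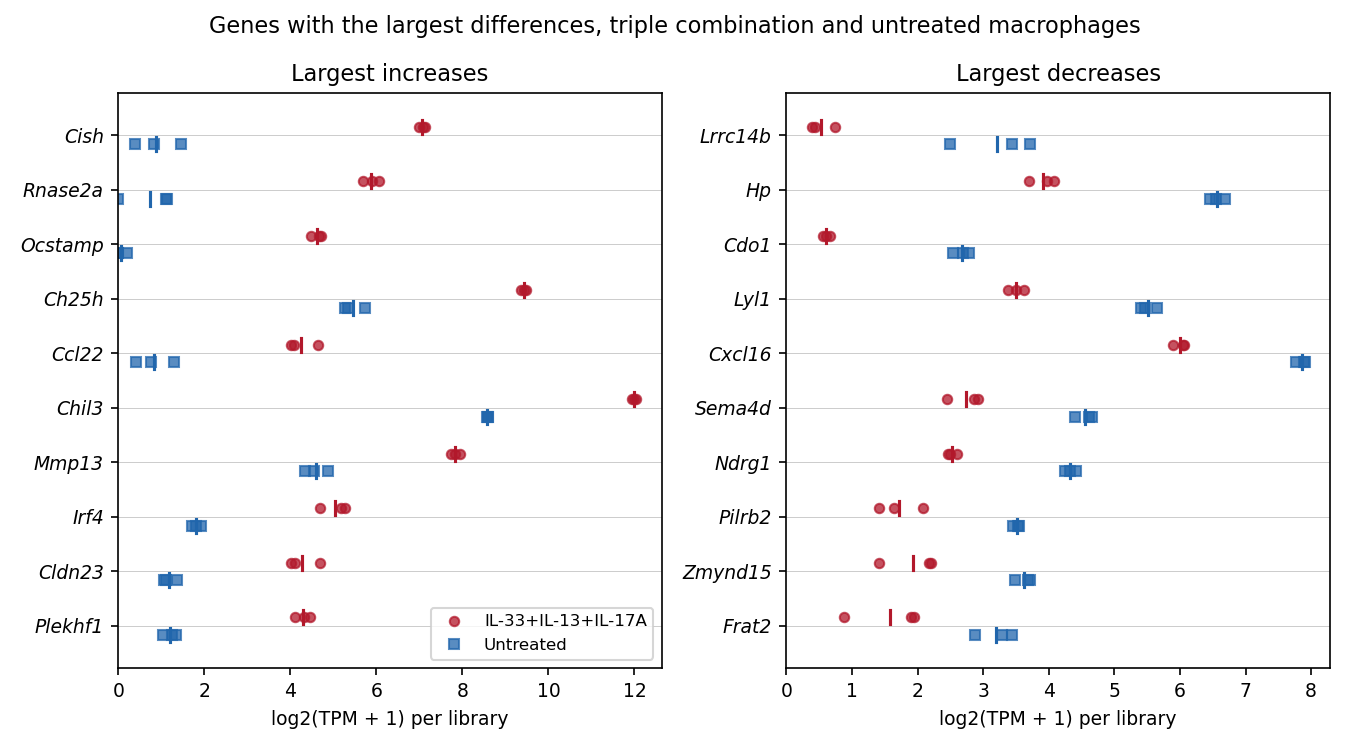
Per-library levels, as log2(TPM + 1), of the 10 largest increases (left) and 10 largest decreases (right) that met the naming rule, with triple libraries as red circles above untreated ones as blue squares and vertical ticks at group means. By the naming rule the groups do not overlap for any of these genes. Cish shows the widest gap, with a log2 fold change of 6.19.

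Receptor subunits of the 3 cytokines did not share a direction. Il13ra1 had 12.8, 11.6 and 12.3 TPM in the triple combination and 12.2, 14.6 and 14.01 TPM untreated and was not called (log2 fold change -0.14 ± 0.068 (SE), limma adjusted p = 0.142), but it passed without untreated replicate 1. Il4ra, the other subunit of the IL-13 receptor, had 7.83, 6.62 and 7.71 TPM, against 8.57, 9.81 and 10.6 TPM (log2 fold change -0.34 ± 0.094 (SE), limma adjusted p = 0.00959), a call that was lost without replicate 2 of the triple combination or untreated replicate 3. Il1rap, which pairs with the IL-33 receptor, rose to 2.44, 2.08 and 2.57 TPM, against 1.49, 1.39 and 1.68 TPM untreated (log2 fold change 0.41 ± 0.087 (SE), limma adjusted p = 0.00116). Il1rl1, which gives the IL-33 receptor its specificity, stayed under the filter in every group, with 0.0818, 0.123 and 0.0751 TPM in the triple combination and 0.0293, 0.0271 and 0 TPM untreated, values that its long span divides. Il17ra fell to 30.2, 24.9 and 32.4 TPM, against 44.3, 49.1 and 49.5 TPM untreated (log2 fold change -0.69 ± 0.096 (SE), limma adjusted p = 1.69e-05), while Il17rc was under the filter with 0.918, 0.453 and 0.46 TPM and 0.179, 0.332 and 0.516 TPM. A level can be compared between libraries but not between genes, because the deposited TPM were scaled by gene span, introns included.

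Of 12 tested genes of IL-13 receptor and JAK-STAT signalling, 2 rose and 4 fell, with a median log2 fold change of -0.16 beside -0.07 over all genes. In this and the following lists against untreated, counts stand beside 10.3% of all tested genes called higher and 17.7% lower. Jak2, a receptor-bound kinase, rose (log2 fold change 0.41 ± 0.10 (SE), limma adjusted p = 0.00425), and Stat3 fell (log2 fold change -0.42 ± 0.092 (SE), limma adjusted p = 0.0019), though Stat3 overlaps the called Stat5a. The count lower was 2 without replicate 2 of the triple combination, 2 without untreated replicate 2 and 1 without untreated replicate 3. Among 11 tested STAT feedback inhibitors 5 rose and 2 fell, or 1 fell without replicate 2 of the triple combination, untreated replicate 2 or untreated replicate 3. Socs1, which blocks JAK kinases, had 24.6, 36.4 and 25.03 TPM in the triple combination, against 3.51, 6.78 and 6.42 TPM untreated (log2 fold change 2.19 ± 0.23 (SE), limma adjusted p = 5.25e-07), and Socs2 had 4.52, 4.83 and 5.33 TPM, against 1.29, 1.34 and 1.77 TPM. Ptpn6, the phosphatase SHP-1, fell (log2 fold change -0.52 ± 0.049 (SE), limma adjusted p = 1.4e-07). The IL-33 receptor pathway had 1 of 10 tested genes higher and 3 lower, among them the kinase Irak2 and its inhibitory relative Irak3, with log2 fold changes of -0.43 and -0.48. Without replicate 2 of the triple combination or untreated replicate 3 the number lower in this pathway was 2.

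**Figure D3:**
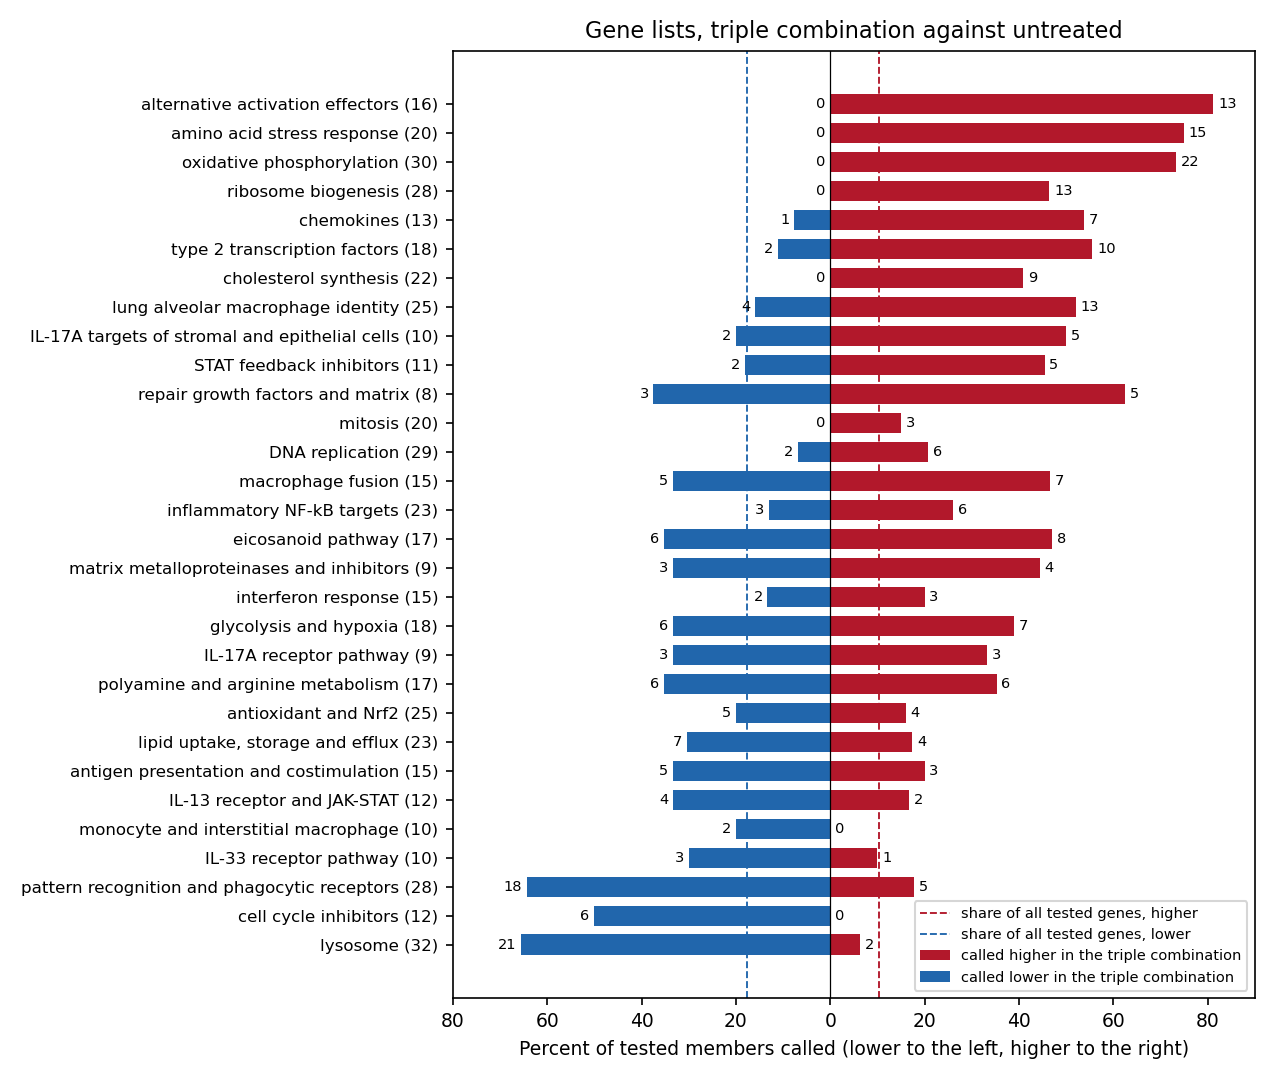
Percent of the tested members of 30 gene lists with 8 or more tested members that were called higher (red, right) or lower (blue, left) in the triple combination against untreated, with the number called at each bar end and the number tested in parentheses. Dashed lines mark 10.3% and 17.7%, the shares of all tested genes. Alternative activation effectors (13 of 16 higher) and lysosome genes (21 of 32 lower) had large shares of called members.

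Alternative activation effectors rose. Of 16 tested members 13 were called higher and none lower, but 5 of the 16 (Chil4, Retnla, Arg1, Ccl17 and Ccl24) reached 1 TPM only in libraries given IL-13 and so entered the test through them. Of the other 11 members 9 were called higher and none lower, with a median log2 fold change of 1.62. Over all 16 the median was 1.08, and 2.27 with limma-voom on recovered reads. Beside Chil3 and Ch25h, the cross-linking enzyme Tgm2 had 400.1, 325 and 399 TPM in the triple combination, against 110.5, 127 and 125 TPM untreated, and Cdh1, the E-cadherin gene that alternatively activated macrophages express, had 29.3, 24.2 and 36.5 TPM, against 3.16, 3.78 and 3.69 TPM (log2 fold change 2.75 ± 0.13 (SE), limma adjusted p = 1.01e-11). Mrc1, the mannose receptor, had 160.0, 122 and 173 TPM, against 78.7, 93.03 and 93.6 TPM (log2 fold change 0.76 ± 0.10 (SE), limma adjusted p = 1.05e-05). Arg1, the arginase of the urea cycle, reached 0.718, 0.576 and 0.805 TPM, against 0.0857, 0 and 0.0822 TPM, and Retnla, the secreted protein Fizz1, reached 1.53, 3.24 and 2.35 TPM and is listed at 0 in all 3 untreated libraries. Ccl17, another ligand of Ccr4, had 4.32, 0 and 1.699 TPM and is listed at 0 in untreated cells, but it was not called (limma adjusted p = 0.0525). It was called without replicate 2 of the triple combination, without both low-slope libraries and with the length slope as a covariate.

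Of 18 tested transcription factors tied to type 2 cytokines 10 rose and 2 fell. Pparg, the nuclear receptor required for alveolar macrophages to form, had 21.3, 20.8 and 21.7 TPM in the triple combination, against 8.499, 7.91 and 8.29 TPM untreated (log2 fold change 1.27 ± 0.047 (SE), limma adjusted p = 2.52e-13). Myc, a regulator of growth, had 112, 105 and 117 TPM, against 36.7, 39.6 and 45.3 TPM, and Batf3, known for its role in dendritic cells, had 20.4, 21.9 and 20.2 TPM, against 4.35, 3.77 and 4.36 TPM. Beside Lyl1, Bhlhe41 was called lower. Without untreated replicate 1 the number lower was 4.

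Among chemokines 7 of 13 tested genes rose, and Cxcl16 fell, or 6 of 11 rose without Ccl17 and Ccl24. Cxcl3, which attracts neutrophils through Cxcr2, had 24.3, 23.5 and 21.5 TPM in the triple combination, against 4.81, 7.51 and 5.19 TPM untreated (log2 fold change 1.84 ± 0.21 (SE), limma adjusted p = 1.35e-06). The macrophage chemokine Ccl6 had 553, 521 and 486 TPM, against 193, 178 and 157 TPM (log2 fold change 1.56 ± 0.069 (SE), limma adjusted p = 3.58e-12). Of 23 tested inflammatory NF-kB targets 6 rose and 3 fell, and median-ratio scaling raised the number higher to 10. Without triple replicate 1 or untreated replicate 1, 4 of these targets rose and 2 fell. That was 26.1% called, beside 26% and 28.9% of all genes in these 2 settings. Il1b had 31.5, 31.3 and 27.9 TPM, against 5.598, 4.59 and 5.83 TPM (log2 fold change 2.30 ± 0.12 (SE), limma adjusted p = 3.37e-11), and Il1a had 147, 149.7 and 150.5 TPM, against 77.5, 80.3 and 82.3 TPM. Il1b overlaps the antisense gene Il1bos. Tnfaip2 fell (log2 fold change -0.57 ± 0.081 (SE), limma adjusted p = 2.18e-05), and Tnf, Ccl3 and Ccl4 were not called. Of 10 tested genes known as IL-17A targets in stromal and epithelial cells 5 rose and 2 fell, or 4 rose without triple replicate 1 or 2 or untreated replicate 1 or 2. Mmp13 and the transcription factor Cebpb had the smallest p among them, and Cebpb had 5089, 5280.2 and 4749 TPM, against 3607, 3634 and 3757 TPM (log2 fold change 0.46 ± 0.047 (SE), limma adjusted p = 4.11e-07), a smaller change than that of Cxcl3 in the same list. None of these 10 genes was called when IL-17A was added to IL-33 and IL-13. When IL-13 was added to IL-33 and IL-17A 7 rose and 2 fell, beside 11% and 21.7% of all tested genes. In the IL-17A receptor pathway 3 of 9 tested genes rose against untreated cells and 3 fell. The RNase Zc3h12a, which limits this pathway, was among the higher (log2 fold change 0.49 ± 0.075 (SE), limma adjusted p = 5.18e-05), and Nfkbiz, which codes for a nuclear partner of NF-kB, among the lower (log2 fold change -0.71 ± 0.11 (SE), limma adjusted p = 6.09e-05).

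Matrix metalloproteinases and their inhibitors gave 4 higher and 3 lower of 9 tested. Mmp19 had 267, 222 and 267 TPM in the triple combination, against 62.5, 67.5 and 64.7 TPM untreated (log2 fold change 1.94 ± 0.066 (SE), limma adjusted p = 6.41e-14), while the inhibitor Timp2 had 15.6, 14.3 and 15.6 TPM, against 24.2, 24.5 and 24.2 TPM (log2 fold change -0.65 ± 0.059 (SE), limma adjusted p = 7.2e-08). Of 8 tested repair factors and matrix genes 5 rose and 3 fell. Without Col4a1, which reached 1 TPM only in libraries given IL-13, 4 of 7 rose. The growth factor Igf1 had 14.7, 13.8 and 14.5 TPM, against 6.02, 6.16 and 6.17 TPM, and Hbegf, a ligand of the EGF receptor, had 3.68, 5.69 and 5.53 TPM, against 0.676, 0.536 and 1.297 TPM. Spp1, the osteopontin gene, fell (log2 fold change -0.59 ± 0.055 (SE), limma adjusted p = 1.32e-07), as did Tgfbi, a matrix protein induced by TGF-beta, with 2.96, 1.85 and 2.06 TPM, against 8.22, 9.29 and 8.96 TPM. Among 15 tested fusion genes 7 rose and 5 fell. Without Ocstamp, which reached 1 TPM only in libraries given IL-13, 6 of 14 rose. Acp5, the acid phosphatase of osteoclasts, rose (log2 fold change 0.73 ± 0.034 (SE), limma adjusted p = 5.6e-12), while the collagen-cleaving cathepsin Ctsk fell (log2 fold change -0.37 ± 0.022 (SE), limma adjusted p = 1.75e-10).

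Receptors that sense microbes and particles were mostly lower. Of 28 tested members 18 fell and 5 rose, with a median log2 fold change of -0.36. Cd14, the endotoxin co-receptor, had 628, 613 and 614 TPM in the triple combination, against 1489, 1516 and 1545 TPM untreated (log2 fold change -1.29 ± 0.038 (SE), limma adjusted p = 8.49e-15), and the C-type lectin Clec4d had 115, 127 and 111 TPM, against 286, 270.4 and 278 TPM (log2 fold change -1.24 ± 0.048 (SE), limma adjusted p = 5.21e-13). The groups were far apart for both. Against this trend Clec7a, the beta-glucan receptor Dectin-1, had 1330.3, 1302 and 1391 TPM, against 909.7, 911 and 914 TPM (log2 fold change 0.56 ± 0.026 (SE), limma adjusted p = 5.72e-12), and Fcgr2b, the inhibitory Fc receptor, also rose (log2 fold change 0.54 ± 0.053 (SE), limma adjusted p = 1.88e-07). Of 15 tested antigen presentation genes 3 rose, with the class II chaperone Cd74 at 173, 196 and 181 TPM, against 126, 117 and 105 TPM, and the checkpoint ligand Cd274 at 109.9, 87.1 and 111 TPM, against 60.97, 68.4 and 67.6 TPM. The number lower was 5, and 2 or 3 when any of 5 of the 6 libraries was left out, all but untreated replicate 3. Of 15 tested interferon response genes 3 rose and 2 fell, beside 10.3% and 17.7% of all tested genes. The number higher was 1 without replicate 2 of the triple combination or without untreated replicate 3, and the number lower 4 without untreated replicate 1. The guanylate-binding gene Gbp3 fell (log2 fold change -1.23 ± 0.14 (SE), limma adjusted p = 2.05e-06), and Isg15 and Irf7 were not called.

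Genes of the amino acid stress response rose, 15 of 20 tested and none lower, with a median log2 fold change of 0.44. The serine pathway enzyme Psat1 had 20.8, 22.1 and 21.1 TPM in the triple combination, against 9.75, 9.82 and 9.95 TPM untreated (log2 fold change 1.04 ± 0.060 (SE), limma adjusted p = 1.18e-10), Phgdh had 83.7, 76.96 and 85.03 TPM, against 38.7, 44.6 and 44.5 TPM, and the mitochondrial folate enzyme Mthfd2 had 46.5, 44.1 and 47.6 TPM, against 24.3, 25.2 and 26.3 TPM. Oxidative phosphorylation gave 22 of 30 tested subunits higher and none lower, by small amounts, with a median of 0.21. Atp5b, of the ATP synthase, had 1674, 1625 and 1700.2 TPM, against 1282, 1335 and 1323 TPM (log2 fold change 0.34 ± 0.026 (SE), limma adjusted p = 8.56e-09). Without replicate 2 of the triple combination 21 subunits were higher and 2 lower, and without untreated replicate 3 these counts were 20 and 1. Of 28 tested ribosome biogenesis genes 13 rose and none fell, or 20 with the length slope as a covariate, and cholesterol synthesis had 9 of 22 genes higher and none lower, or 16 higher after the lowess correction. Fdps, which makes farnesyl diphosphate, led the cholesterol genes (log2 fold change 0.52 ± 0.038 (SE), limma adjusted p = 3.61e-09).

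In glycolysis 7 of 18 tested genes rose and 6 fell. Ldha, the lactate dehydrogenase subunit, had 757, 786 and 761 TPM in the triple combination, against 414, 418 and 423 TPM untreated (log2 fold change 0.88 ± 0.025 (SE), limma adjusted p = 6.57e-15), whereas the lactate exporter Slc16a3 fell (log2 fold change -0.45 ± 0.044 (SE), limma adjusted p = 2.8e-07). Among 23 tested genes of lipid handling 4 rose and 7 fell, or 10 and 6 after the lowess correction. Cd36, a fatty acid and lipoprotein receptor, rose (log2 fold change 0.62 ± 0.036 (SE), limma adjusted p = 1.32e-10), and the lipoprotein gene Apoe had 129, 124 and 134 TPM, against 255, 261 and 211 TPM (log2 fold change -0.90 ± 0.12 (SE), limma adjusted p = 8.87e-06). The eicosanoid pathway had 8 of 17 tested genes higher and 6 lower. Ptgs1, the constitutive cyclooxygenase, had 18.6, 18.9 and 20.6 TPM, against 1.59, 1.87 and 1.29 TPM (log2 fold change 2.98 ± 0.092 (SE), limma adjusted p = 1.58e-14), and Hpgds, a prostaglandin D synthase, had 12.5, 11.7 and 13.03 TPM, against 23.8, 25.8 and 23.04 TPM. Of 17 tested polyamine and arginine genes 6 rose and 6 fell, and only 2 were lower under median-ratio scaling. Without Arg1, which reached 1 TPM only in libraries given IL-13, 5 of 16 rose. The spermidine synthase Srm and the arginine transporter Slc7a2 rose, with log2 fold changes of 0.81 and 1.21.

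Lysosome genes fell as a group, 21 of 32 tested against 2 higher, with a median log2 fold change of -0.20 and 14 lower under median-ratio scaling. Hexa, a subunit of beta-hexosaminidase, had 388, 387 and 384 TPM in the triple combination, against 477, 477 and 476 TPM untreated (log2 fold change -0.30 ± 0.020 (SE), limma adjusted p = 9.49e-10), and the cathepsin Ctsl had 1368, 1409 and 1369.9 TPM, against 1727, 1667 and 1731 TPM. The libraries of each group lay within a few TPM of each other for Hexa. Of 25 tested antioxidant and Nrf2 genes 4 rose and 5 fell, or 8 fell without replicate 2 of the triple combination. Over all tested genes 10.3% rose and 17.7% fell. Fth1, the ferritin heavy chain, fell (log2 fold change -0.49 ± 0.035 (SE), limma adjusted p = 2.89e-09), and Gclm, a subunit of glutathione synthesis, rose (log2 fold change 0.39 ± 0.054 (SE), limma adjusted p = 1.69e-05).

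Counting both directions and all tested members, proliferation genes were called against untreated cells no more often than all tested genes, of which 28.1% were called. Over all tested genes 10.3% were called higher and 17.7% lower, while most calls in the proliferation lists were higher. Of 29 tested DNA replication genes 6 rose and 2 fell (27.6% called), with 11 higher under median-ratio scaling, and of 20 tested mitosis genes 3 rose and none fell (15% called), with 5 higher without replicate 2 of the triple combination. Without members that reached 1 TPM only in libraries given IL-13, 6 of 27 DNA replication genes rose and 2 fell. Of the 13 mitosis genes left 3 rose (median log2 fold change 0.18, beside -0.07 over all genes). The helicase subunit Mcm5 had 11.1, 9.79 and 11.1 TPM in the triple combination, against 5.62, 7.42 and 6.84 TPM untreated (log2 fold change 0.62 ± 0.094 (SE), limma adjusted p = 4.93e-05), and the mitotic kinase gene Aurkb had 8.29, 6.31 and 8.35 TPM, against 3.67, 4.85 and 4.02 TPM. Mki67, the usual marker of cycling cells, had 1.803, 1.16 and 2.700 TPM in the triple combination and 1.23, 1.79 and 1.18 TPM untreated and was not called (log2 fold change 0.24 ± 0.16 (SE), limma adjusted p = 0.286), but it passed without replicate 2 of the triple combination (log2 fold change 0.43, limma adjusted p = 0.0385). Cell cycle inhibitors had 6 of 12 tested genes lower and none higher. Cdkn1c, which codes for the kinase inhibitor p57, had 21.3, 19.2 and 30.1 TPM, against 65.5, 63.5 and 93.7 TPM (log2 fold change -1.62 ± 0.18 (SE), limma adjusted p = 8.69e-07).

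Markers that define alveolar macrophages were present in all 6 libraries. The lectin Siglecf had 301, 257 and 303 TPM in the triple combination, against 528, 530.1 and 536 TPM untreated, and the integrin subunit Itgax had 2404, 1943 and 2514 TPM, against 1552, 1703 and 1742 TPM. Of 26 identity genes 25 were tested, all but the scavenger receptor Marco, which was under the filter at 0.289, 0.203 and 0.206 TPM and 0.241, 0.255 and 0.364 TPM on its long span. Of the 25, 13 were called higher and 4, Siglecf among them, lower. Without Car4, which reached 1 TPM only in libraries given IL-13, 12 of 24 were called higher. The summed level of all 26 was 25665 to 25965 TPM in the triple combination and 18917 to 19219 TPM untreated. Most of the difference was Chil3 and Ear2, without which the sums were 18252 to 18920 TPM in the triple combination and 17863 to 18191 TPM untreated. Ear2, of the eosinophil-associated ribonucleases, whose near-identical copies may share reads, had 2818, 3449 and 2964 TPM, against 792, 625 and 644 TPM. Summed markers of monocytes and interstitial macrophages, 12 of 18 in the tables, were 766 to 809 TPM, against 1662 to 1721 TPM, most of it Cd14. Of 10 tested members of this list 2 were called lower and none higher, beside 17.7% and 10.3% of all tested genes. All sums in this paragraph add span-scaled levels, so the part of a gene in them also depends on its span. Lymphocyte markers summed to 141 to 160 TPM, against 168 to 190 TPM (4 of 16 in the tables, mostly Il7r), and granulocyte and mast cell markers to 95.0 to 128 TPM, against 137 to 164 TPM (4 of 17, mostly S100a8). Epithelial markers summed to 62.5 to 79.97 TPM, against 52.0 to 62.3 TPM (9 of 16), endothelial markers to 9.06 to 13.7 TPM, against 11.8 to 15.5 TPM (8 of 10, with Tek at 0), fibroblast markers to 2.80 to 4.63 TPM, against 5.12 to 6.99 TPM (6 of 14), and dendritic cell markers to 22.7 to 23.4 TPM, against 7.68 to 8.28 TPM (5 of 8, mostly Batf3). In the epithelial list Cdh1 rose and Hopx, Epcam and Scgb1a1 fell. Other defining markers, such as Cd3e of T cells and the surfactant gene Sftpc, had no entry under these symbols among the 17017 genes. Their levels could not be analysed. The part of other cell types in the results was not tested, and in bulk RNA fewer cells of a type and less RNA per cell cannot be told apart.

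Against IL-13 alone, which shows what IL-33 and IL-17A together did beside IL-13, the triple combination changed 442 of 13215 genes (3.34%), 126 higher (0.953%) and 316 lower (2.39%), or 268 and 417 after the lowess correction. Leaving out IL-13 replicate 1 or 3 gave 283 and 290. Among genes that met the naming rule, neutrophil-attracting Cxcl3 had the largest decrease. It had 24.3, 23.5 and 21.5 TPM in the triple libraries, against 161, 139 and 142 TPM with IL-13 (log2 fold change -2.62 ± 0.21 (SE), limma adjusted p = 3.64e-07). Levels of Cxcl3 in the triple combination lay far below those with IL-13 and above those of untreated cells. H2-M2, a non-classical MHC gene, had 2.17, 2.62 and 1.99 TPM, against 10.2, 7.52 and 9.04 TPM (log2 fold change -1.60 ± 0.20 (SE), limma adjusted p = 8.01e-05), and Eef1a2, a translation elongation factor, had 1.88, 2.64 and 3.16 TPM, against 8.65, 9.56 and 8.92 TPM. The platelet chemokine gene Pf4 had 12.4, 13.03 and 13.2 TPM, against 40.3, 33.1 and 38.6 TPM, a call (limma adjusted p = 0.0234) that was lost without triple replicate 1 or 2 and without any IL-13 library. Of the 442 genes, the triple mean lay between the untreated and IL-13 means for 262, beyond untreated for 107 and beyond IL-13 for 73, a description of levels.

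Proliferation genes were lower than with IL-13. Of 20 tested mitosis genes 13 fell and none rose (median log2 fold change -0.52, beside -0.04 over all genes), and of 29 DNA replication genes 11 fell and none rose (median -0.31). Of the 20 mitosis genes 7 reached 1 TPM only in libraries given IL-13, and of the other 13 genes 7 fell (median -0.46). Likewise 10 of 27 DNA replication genes fell without 2 such members. Mki67 had 1.803, 1.16 and 2.700 TPM in the triple combination, against 6.77, 6.67 and 6.17 TPM with IL-13 (log2 fold change -1.42 ± 0.16 (SE), limma adjusted p = 1.89e-05). Cdc20, an activator of the anaphase-promoting complex, had 1.32, 0.794 and 1.81 TPM, against 4.599, 5.18 and 5.72 TPM (log2 fold change -1.44 ± 0.24 (SE), limma adjusted p = 0.00102), and Mcm5 averaged 10.7 ± 0.764 TPM, against 19.1 ± 1.94 TPM (SD, n = 3 each, log2 fold change -0.78 ± 0.094 (SE), limma adjusted p = 4.41e-05). The groups did not overlap for Mki67 and Mcm5, and for Cdc20 the naming rule required it. Low TPM of the mitosis genes limits their precision.

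Antioxidant and Nrf2 genes were also lower, with 17 of 25 tested lower and none higher (median -0.30). Srxn1, the sulfiredoxin that restores peroxiredoxins, had 669.6, 594 and 658 TPM in the triple combination, against 991, 1015 and 1028 TPM with IL-13 (log2 fold change -0.66 ± 0.054 (SE), limma adjusted p = 4.8e-07). Prdx1, a peroxiredoxin, had 953, 1026 and 932 TPM, against 1391, 1364 and 1449 TPM (log2 fold change -0.53 ± 0.039 (SE), limma adjusted p = 1.38e-07), and Nqo1, a quinone reductase, had 3.13, 2.89 and 3.11 TPM, against 8.91, 7.701 and 8.29 TPM (log2 fold change -1.20 ± 0.14 (SE), limma adjusted p = 3.01e-05). In untreated cells Srxn1 had 622, 721 and 711 TPM, Prdx1 1135, 1078 and 1116 TPM and Nqo1 2.74, 2.34 and 2.42 TPM. Prdx1 was also called lower in the triple combination than in untreated cells, a call lost under median-ratio scaling.

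Other groups differed in fewer members. Of 9 tested matrix metalloproteinases and inhibitors 5 fell, with Mmp19 at 267, 222 and 267 TPM, against 464, 477 and 477 TPM with IL-13 (log2 fold change -0.91 ± 0.066 (SE), limma adjusted p = 1.33e-07), and the neutrophil collagenase Mmp8 at 23.3, 20.8 and 27.3 TPM, against 58.1, 57.98 and 73.5 TPM (log2 fold change -1.37 ± 0.14 (SE), limma adjusted p = 1.09e-05). Of 13 chemokines 4 fell. Il1b had 31.5, 31.3 and 27.9 TPM, against 72.6, 59.9 and 65.6 TPM (log2 fold change -1.10 ± 0.12 (SE), limma adjusted p = 1.66e-05), and Acod1, which makes itaconate, had 9.47, 8.29 and 8.51 TPM, against 21.8, 24.6 and 27.6 TPM (log2 fold change -1.39 ± 0.17 (SE), limma adjusted p = 4.84e-05), below the 15.9, 18.5 and 20.1 TPM of untreated cells. Among 16 alternative activation effectors 4 fell and 1 rose, or 2 fell without any single IL-13 library, with Chil3 at 4192, 3964 and 4081 TPM, against 5102, 5081 and 5317 TPM (log2 fold change -0.34 ± 0.037 (SE), limma adjusted p = 1.66e-05). Without the 5 effectors that reached 1 TPM only in libraries given IL-13, 3 of 11 fell and none rose. Lysosome genes had 7 of 32 members higher and 1 lower, with Hexa at 388, 387 and 384 TPM, against 346, 344 and 347 TPM (log2 fold change 0.16 ± 0.020 (SE), limma adjusted p = 7.26e-05).

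The largest increases over IL-13 among genes that met the naming rule were smaller. Over all called genes, 5 rose by 2-fold or more. Aebp1, a carboxypeptidase-like protein, had 29.1, 25.2 and 26.01 TPM in the triple combination, against 12.7, 12.1 and 12.3 TPM with IL-13 (log2 fold change 1.05 ± 0.088 (SE), limma adjusted p = 6.44e-07), and the steroid dehydrogenase Hsd17b1 had 12.01, 15.03 and 16.95 TPM, against 6.31, 7.85 and 7.69 TPM. Plbd1, a phospholipase-like protein, had 5.92, 6.56 and 6.06 TPM, against 3.05, 3.05 and 2.92 TPM, and 5.75, 7.23 and 6.13 TPM in untreated cells. Lyl1, which fell against untreated cells, had 10.4, 9.36 and 11.3 TPM, against 6.12, 6.61 and 6.41 TPM with IL-13 (log2 fold change 0.62 ± 0.12 (SE), limma adjusted p = 0.00514). Cdkn1c was called (log2 fold change 0.68 ± 0.18 (SE), limma adjusted p = 0.0373), but not when either of the triple replicates 1 and 3 or the IL-13 replicates 1 and 3 was left out.

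**Figure D4:**
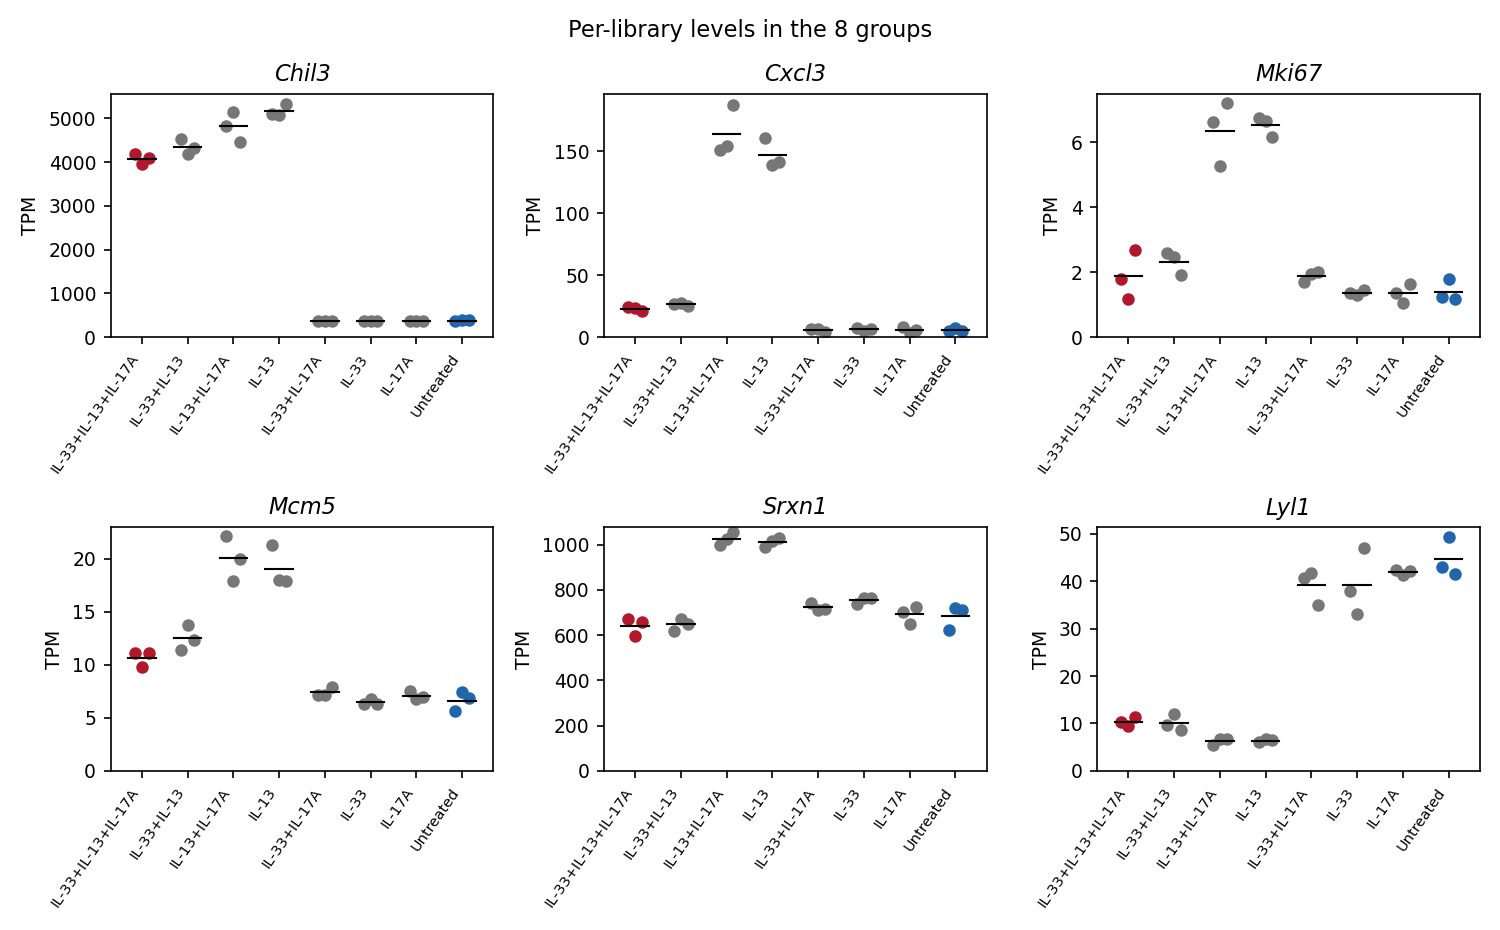
TPM of 6 genes in each of the 24 libraries by group, with 1 point per library, black lines at group means, the triple combination in red and untreated cells in blue. Chil3 was high in the 4 groups that received IL-13. Cxcl3, Mki67, Mcm5 and Srxn1 were highest in the IL-13+IL-17A and IL-13 groups, and Lyl1 was lowest there.

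When IL-33 was added to IL-13 and IL-17A, 469 genes changed (3.55%), 152 higher (1.15%) and 317 lower (2.4%), with 244 and 330 under median-ratio scaling. The count was 311 without replicate 2 of the triple combination, and 294, 308 and 286 without replicates 1, 2 and 3 of IL-13+IL-17A. Cxcl3 had 24.3, 23.5 and 21.5 TPM in the triple combination, against 151, 154 and 188 TPM with IL-13+IL-17A (log2 fold change -2.77 ± 0.21 (SE), limma adjusted p = 2.01e-07). Under the naming rule H2-M2, Acod1, Cdc20 and Krt79, a keratin of alveolar macrophages, followed, with log2 fold changes of -1.62, -1.60, -1.48 and -1.43. Mitosis genes had 13 of 20 tested members lower and DNA replication genes 14 of 29. Without those seen only with IL-13 the counts were 8 of 13 and 12 of 27. Antioxidant and Nrf2 genes had 17 of 25 lower, with none higher in any of these lists. Over all called genes, 4 rose by 2-fold or more. Among genes that met the naming rule, the largest increases were in Ccn3, a matricellular protein, and Aebp1, with log2 fold changes of 0.98 and 0.97. Wfdc17, a secreted WAP-domain protein, Tnni2, a troponin subunit, and Plbd1 followed, with 0.71, 0.70 and 0.69. The call of Ccn3 was lost without any triple library and without IL-13+IL-17A replicate 1 or 3.

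IL-17A added to IL-33 and IL-13 gave no call. By limma 0 of 13215 genes passed, although 826 had an unadjusted p under 0.05. The lowest adjusted p was 0.126. The test of recovered reads with limma-voom also called 0, while library quality weights called 35. Cxcl3 had 24.3, 23.5 and 21.5 TPM in the triple combination and 26.5, 27.9 and 25.1 TPM with IL-33+IL-13 (log2 fold change -0.19 ± 0.21 (SE), limma adjusted p = 0.774), and Mki67 had 1.803, 1.16 and 2.700 TPM and 2.59, 2.47 and 1.92 TPM (log2 fold change -0.23 ± 0.16 (SE), limma adjusted p = 0.74). A p that misses the threshold does not show that the groups were alike, and the median SE of a log2 difference over tested genes was 0.10.

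When IL-13 was added to IL-33 and IL-17A, 4321 genes changed (32.7%), 1450 higher (11%) and 2871 lower (21.7%), with 2217 and 2146 under median-ratio scaling. Cish had 139.9, 126 and 135 TPM in the triple combination, against 1.29, 1.597 and 1.005 TPM with IL-33+IL-17A (log2 fold change 5.88 ± 0.20 (SE), limma adjusted p = 7.49e-14). Under the naming rule Rnase2a, Ocstamp, Ch25h and Ccl22 followed, with log2 fold changes of 5.51, 4.54, 3.97 and 3.59. The largest decreases under that rule were in Lrrc14b, Hp, Sema4d, Zmynd15 and Cdkn1c, from -2.79 to -1.86. The IL-33+IL-17A libraries had length slopes of 0.000526, 0.0930 and 0.0701, 2 of them the highest of the 24, and the median log2 fold change was 0.01 for short, -0.09 for middle and -0.19 for long transcripts.

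The sum of the separate responses was compared with the joint one, as the departure of the triple combination from IL-13 plus IL-33+IL-17A, each taken against untreated on the log2 scale. It passed for 186 genes (1.41%), 53 above the sum (0.401%) and 133 below it (1.01%). Without untreated replicate 1 the count was 116, without IL-13 replicate 1 or 2 it was 111 each, and without IL-33+IL-17A replicate 2 it was 122. Below the sum were 6 of 29 DNA replication and 5 of 20 mitosis genes. Without members seen only with IL-13 these counts were 6 of 27 and 4 of 13. Also below were 4 of 9 matrix metalloproteinases and inhibitors and 13 of 25 tested antioxidant and Nrf2 genes. None of the genes in any of these lists was above the sum. Prdx1, for example, departed by -0.52 ± 0.055 (SE, limma adjusted p = 3.46e-05).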

How the data were processed

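Total RNA from primary mouse alveolar macrophages was sequenced on a NovaSeq6000, per the labels' protocols. The submitters' processing notes name STAR and the genome build mm10, and no version or strand setting is given in the sources used here. The authors deposited 1 table per library with TPM and a gene length for 17017 genes. That length equals the gene's genomic span, introns included, for every gene (GENCODE M21 holds 16998 of the IDs), so a level can be compared between libraries but not between genes. Read counts were recovered from TPM times span, and 90.2 to 91.7% of values up to 20 reads came out whole within 0.05 reads, where chance gives 10%.

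From the deposited TPM, log2(TPM + 1) of 13215 genes was fitted with limma 3.58.1 in R 4.3.3 (limma-trend, 8 group means over 24 libraries, adjustment by Benjamini-Hochberg over all tested genes). Groups came from the treatment label. The members, gene lists and tests were chosen with earlier results of these data known. Named genes were the 10 largest increases and 10 largest decreases against untreated, and 5 each way in the other comparisons, among called genes averaging at least 5 TPM in 1 group whose groups did not overlap and whose symbol is not provisional (such as Gm or Rik names), plus cytokine receptors and the leading genes of each list. Other genes (such as Arg1, Retnla, Ccl17, Marco, Prdx1 and Nqo1) were named after their values were seen. Alternatives were another pseudocount, other filters, median-ratio scaling, library quality weights, the length slope as a covariate, a lowess correction on transcript length, limma-voom on recovered reads, a fit of only the groups compared, and leaving out each library. The fit was tested on simulated data. Their residuals were independent, with no length bias shared within a library, so that test does not cover such a bias. Promoters are RefSeq windows. Python 3.11.15, numpy 2.4.6, pandas 2.3.3 and matplotlib 3.10.9 were used. Intervals from recovered reads were not given, since the spread between libraries sets the precision.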

Additional observations from a re-analysis of the deposited data

Results flagged for a closer look

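The joint response differed from the sum of the IL-13 response and the IL-33+IL-17A response, a contrast tested directly in the fit. It passed for 186 genes. Among genes that met the naming rule, Cxcl3 lay furthest below the sum, by -2.60 ± 0.29 on the log2 scale (SE, limma adjusted p = 7.27e-05). Its means were 23.1 TPM in the triple combination, 147 TPM with IL-13, 5.81 TPM with IL-33+IL-17A and 5.83 TPM untreated. The next were H2-M2 at -2.09 ± 0.29 (SE), limma adjusted p = 0.000702, Mki67 at -1.69 ± 0.22 (SE), limma adjusted p = 0.000401, Eef1a2 at -1.63 ± 0.26 (SE), limma adjusted p = 0.00189, and Dusp4, a phosphatase of MAP kinases, at -1.57 ± 0.31 (SE), limma adjusted p = 0.0111.

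Over all called genes, 3 lay at least 2-fold above the sum. Among genes that met the naming rule, Hsd17b1 lay furthest above it, at 0.96 ± 0.19 (SE), limma adjusted p = 0.0118. Plbd1 followed at 0.95 ± 0.12 (SE), limma adjusted p = 0.00029, and Aebp1 at 0.84 ± 0.12 (SE), limma adjusted p = 0.00117. Lyl1 was at 0.80 ± 0.17 (SE), limma adjusted p = 0.0218, and Apoe at 0.77 ± 0.17 (SE), limma adjusted p = 0.0247. Apoe had means of 129 TPM in the triple combination, 84.9 TPM with IL-13, 214 TPM with IL-33+IL-17A and 243 TPM untreated. The calls of Lyl1 and Apoe were lost when any of several single libraries was left out. The cause of these departures was not tested.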

How the results depend on the processing

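No paired analysis was possible because replicate numbers were given in accession order and no label ties libraries across groups. Counts of called genes lay within 1.5 times of the reported ones except in the settings given here. With only the groups compared in the fit, which has fewer libraries to estimate the spread, the counts were 1508 against untreated, 76 against IL-13, 49 against IL-13+IL-17A, 1847 against IL-33+IL-17A and 68 for the departure from the sum. Library quality weights gave 1009 against IL-13, 1122 against IL-13+IL-17A, 35 against IL-33+IL-13 and 385 for the departure. The lowess correction gave 685 against IL-13, 735 against IL-13+IL-17A and 290 for the departure, and the slope covariate 981 against IL-13+IL-17A. The cause of these shifts was not tested.

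Leaving out 1 library at a time gave 2937 to 4001 calls against untreated, 283 to 563 against IL-13, 286 to 666 against IL-13+IL-17A, 3263 to 4961 against IL-33+IL-17A and 111 to 263 for the departure. Of the named genes only Il13ra1 against untreated, which was not called, changed direction, with a log2 fold change of 0.0021 after the lowess correction. With 3 libraries a group, the median SE of a log2 difference over tested genes was 0.10, which limits how small a change could be called.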
